A study of Mus musculus with 13 samples.

Results

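The 10 genes described here encode the TGF-beta ligands (Tgfb1, Tgfb2 and Tgfb3), their type I and type II signalling receptors (Tgfbr1 and Tgfbr2), the latent TGF-beta binding proteins (Ltbp1, Ltbp2, Ltbp3 and Ltbp4) and the TGF-beta-induced matrix protein Tgfbi. They were taken by symbol from a list of genes of the pathway, out of 48795 genes in the table, and all 10 passed the filter on low counts in every comparison. The mRNA came from the right brain hemisphere, without olfactory bulb and cerebellum, of 13 mice at postnatal day 11 on a C57BL/6J background. The 5 nlsYAP5SA mice were NexCre +/- and YAP5SAnls +/-. Their transgene encodes a nuclear YAP1 with mutated phosphorylation sites and is switched on where Cre from the NEX/NeuroD6 locus removes a stop cassette, in neuronal precursors, so only some cells of the hemisphere carry the active allele. The 5 control mice were littermates, NexCre -/- and YAP5SAnls +/-, and so carried the silent transgene. The 3 C57BL/6 mice were wild type and came from other litters. The littermates came from different matings and were not assigned to litters in the labels, and males and females were used without a label for each mouse. The question was how the mRNA of the pathway differed between nlsYAP5SA mice, which develop subependymal tumours, and each set of mice without active transgene.

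TGF-beta is secreted as a latent complex, in which the mature cytokine stays bound to its propeptide. The latent TGF-beta binding proteins LTBP1, LTBP3 and LTBP4 tether this complex to fibrillin and fibronectin of the extracellular matrix. LTBP2 is a relative that lies on fibrillin microfibrils but does not carry latent TGF-beta. Once integrins or proteases release the cytokine, it binds the type II receptor, which phosphorylates the type I receptor, and this in turn phosphorylates SMAD2 and SMAD3. In the brain, TGF-beta is known for maintaining microglia and for its part in glial scars.

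Totals were between 20871566 and 25524349 estimated counts per mouse. Yap1 was measured at 19.96 to 22.3 CPM (counts relative to the TMM-scaled library size) in control and 22.6 to 26.6 CPM in nlsYAP5SA mice (log2 fold change 0.23 ± 0.06 SE). NEX-Cre is an allele of Neurod6, for which nlsYAP5SA mice were heterozygous and which control mice lacked. Neurod6 was at 91.5 to 110.0 CPM in control and 38.9 to 56.8 CPM in nlsYAP5SA mice (log2 fold change -0.98 ± 0.09 SE). The part of this allele in the difference was not tested. Summed over 4 Y-linked genes, the 5 control mice were between 91.0 and 129 CPM, nlsYAP5SA replicates 3 and 4 were at 130 and 135 CPM, and nlsYAP5SA replicates 1, 2 and 5 were at most 0.0942 CPM. C57BL/6 replicate 2 was at 0 CPM, and a count of 0 allows up to 3 counts. Because the controls were all Y-bearing by this measure, the fold changes of the 10 genes against control and the counts of called genes were also computed within the Y-bearing mice and with the Y-linked sum as a covariate. Ratios, shares, marker sums and the other lists of the pathway were computed over all mice alone.

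Of the 10 genes, 6 rose in nlsYAP5SA mice against control and 0 fell, called where the quasi-likelihood test of edgeR gave a p of at most 0.05 after adjustment by Benjamini and Hochberg. Ltbp2 rose most, 35.8-fold, followed by Tgfbi at 3.24-fold, Tgfb3 at 1.86-fold, Tgfbr2 at 1.58-fold, Tgfb2 at 1.44-fold and Tgfbr1 at 1.36-fold. Tgfb1, Ltbp1, Ltbp3 and Ltbp4 did not pass. In a whole hemisphere, a different number of cells of a type and a different amount of RNA per cell cannot be told apart. For comparison, 10.8% of the 16315 tested genes passed, 7.36% with a rise (1200 genes) and 3.44% with a fall (561 genes). An offset for GC content and length from an ordinary loess fit turned this split to 1246 genes higher and 2309 lower. The same offset from a robust loess fit did not, with 1482 higher and 944 lower. The median log2 fold change was 0.49 over the 10 genes and -0.01 over all genes tested. Beside C57BL/6 mice, Ltbp2, Tgfbi, Tgfb3, Tgfbr2 and Tgfb2 rose and Ltbp4 fell, where 6.38% of 16641 genes passed, 4.16% with a rise (692 genes) and 2.22% with a fall (369 genes). With the ordinary loess offset this split was 865 higher and 1435 lower, and with the robust one 1016 higher and 654 lower. None of the 10 genes was called between C57BL/6 and control mice, where 0.169% of 16546 genes passed, 0.0484% with a rise and 0.121% with a fall.

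Within the Y-bearing mice, a set chosen after seeing the data, 4 of the 10 genes were called against control (Tgfb2, Tgfb3, Ltbp2 and Tgfbi), beside 1.97% of all genes, and Ltbp2 alone against C57BL/6, beside 0.285%. With the Y-linked sum as a covariate, 4 were called against control (Tgfb2, Tgfb3, Tgfbr2 and Ltbp2), beside 3.32% of all genes. DESeq2's Wald test, run without the filter on low counts, called 7 of the 10 against control, the 6 above and Ltbp1. Beside these it called 7.61% of 29565 genes (2249 genes).

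**Figure D1:**
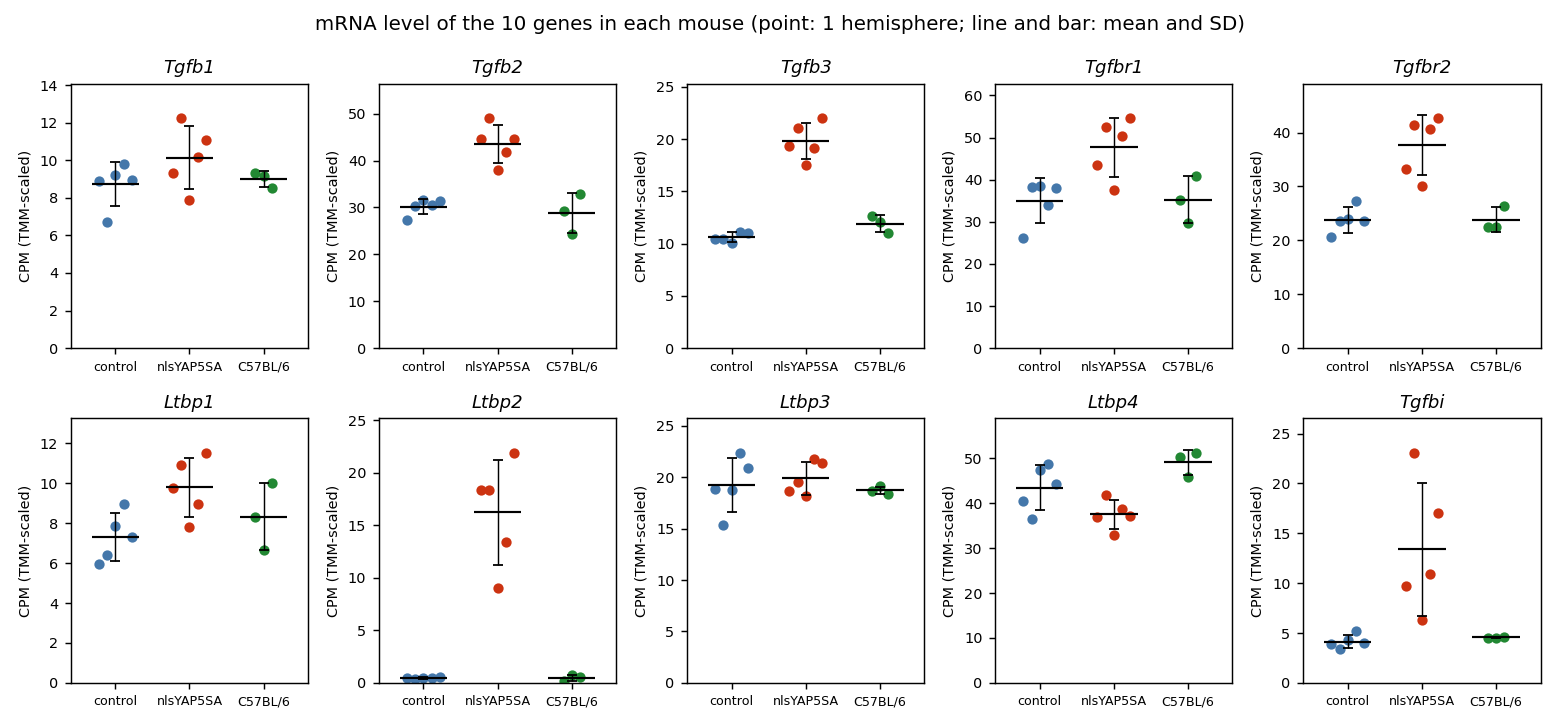
Level of each of the 10 genes in CPM (TMM-scaled, linear axis from 0) in each mouse, with group means as horizontal lines and SDs as bars. The nlsYAP5SA points of Ltbp2 lie between 9.01 and 21.9 CPM and the points of both other groups at or below 0.719 CPM, while those of Ltbp3 lie within a common range.

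The start regions of Ltbp2 and Tgfbi, the genes with the largest rises, and of Ltbp3, which did not pass the test, are shown for their motifs of the transcription factors of the TGF-beta and YAP1 pathways. They are RefSeq sequences of GRCm38.p6, 5′ to 3′ on the strand of the gene, and end before its annotated exon. Capitals mark the SMAD box CAGAC or its reverse complement GTCTG.

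Ltbp2, chr12:84876533-84876741, minus strand: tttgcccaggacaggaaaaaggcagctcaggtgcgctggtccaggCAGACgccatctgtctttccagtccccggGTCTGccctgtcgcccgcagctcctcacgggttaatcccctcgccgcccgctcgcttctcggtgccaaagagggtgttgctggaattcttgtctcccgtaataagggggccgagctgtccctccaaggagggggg

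Tgfbi, chr13:56609336-56609522, plus strand: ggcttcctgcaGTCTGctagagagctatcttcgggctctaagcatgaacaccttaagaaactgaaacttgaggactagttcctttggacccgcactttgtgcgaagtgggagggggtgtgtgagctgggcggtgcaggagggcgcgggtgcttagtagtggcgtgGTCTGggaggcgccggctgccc

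Ltbp3, chr19:5740650-5740899, plus strand: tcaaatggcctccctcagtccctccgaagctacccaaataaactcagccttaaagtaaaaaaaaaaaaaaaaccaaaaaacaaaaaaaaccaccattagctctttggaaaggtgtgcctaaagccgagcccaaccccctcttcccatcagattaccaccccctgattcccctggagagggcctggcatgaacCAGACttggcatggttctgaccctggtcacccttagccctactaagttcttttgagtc

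The printed part of Ltbp2 holds 2 SMAD boxes in 209 bases, that of Tgfbi 2 in 187 bases and that of Ltbp3 1 in 250 bases. The Ltbp2 stretch also lies within an exon of D030025P21Rik, an antisense gene. RefSeq promoter windows, 250 bases before to 50 bases after a start, were found for 9 of the 10 genes, in 13 windows. Tgfb3 had none. A SMAD box on either strand was in 8 of the 13 windows, those of Ltbp1, Ltbp2, Ltbp3, Tgfb2, Tgfbi, Tgfbr1 and Tgfbr2, and in 49.6% of 32851 promoter windows of the genome. The TEAD motif GGAATG, bound by the DNA-binding partners of YAP1, was in 0 of the 13 windows on either strand and in 14.7% of all windows. The AP-1 motif TGANTCA was in 1 window, that of Ltbp3, and in 7.81% of all windows. These matches describe letters in short windows around a start and include no distal element.

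Tgfb1 lies at chr7:25687002-25705077 (plus strand), Tgfb2 at chr1:186622792-186705989 (minus) and Tgfb3 at chr12:86056745-86079041 (minus). Tgfbr1 lies at chr4:47353222-47414931 (plus) and Tgfbr2 at chr9:116084293-116175360 (minus). Ltbp1 lies at chr17:75005568-75392512 (plus), Ltbp2 at chr12:84783212-84876532 (minus), Ltbp3 at chr19:5740904-5758532 (plus), Ltbp4 at chr7:27305136-27337692 (minus) and Tgfbi at chr13:56609523-56639562 (plus), all in GRCm38. The antisense genes that overlap Tgfb2 and Tgfb3 in exons had at most 5.13 estimated counts in a mouse where the table listed them.

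Of the ligands, Tgfb3 changed most. The control mice had 10.4, 10.5, 10.05, 11.1 and 11.1 CPM of Tgfb3 in replicates 1 to 5, the nlsYAP5SA mice 19.3, 21.1, 17.6, 19.1 and 22.01 CPM, and the C57BL/6 mice 12.6, 12.1 and 11.0 CPM. Each nlsYAP5SA mouse was thus above each mouse of the other groups, and the spread within the groups was small. The log2 fold change was 0.90 ± 0.08 (SE, adjusted p = 1.37e-05) against control and 0.72 ± 0.10 (adjusted p = 0.00255) against C57BL/6. Within the Y-bearing mice Tgfb3 was still called against control, with a log2 fold change of 0.78 (adjusted p = 0.00328, 5 control and 2 nlsYAP5SA mice), whereas against C57BL/6 it was not, at 0.62 (adjusted p = 0.221).

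Tgfb2 was measured at 27.4, 30.3, 31.5, 30.4 and 31.3 CPM in the control mice, 44.5, 49.1, 37.9, 41.8 and 44.5 CPM in the nlsYAP5SA mice and 29.3, 24.4 and 32.8 CPM in the C57BL/6 mice. The nlsYAP5SA mice again did not overlap the others. Tgfb2 differed by a log2 fold change of 0.53 ± 0.07 (SE, adjusted p = 0.000342) from control and of 0.58 ± 0.11 (adjusted p = 0.0147) from C57BL/6 mice. The Y-bearing mice alone gave 0.40 (adjusted p = 0.046) against control and 0.35 against C57BL/6, which did not pass (adjusted p = 0.547). Against C57BL/6 the call of Tgfb2 was also lost without C57BL/6 replicate 1 (adjusted p = 0.0572).

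Tgfb1, the ligand with the broadest known role in immune control, was at 8.87, 6.73, 9.21, 9.82 and 8.93 CPM in control mice. It was at 9.31, 12.2, 7.89, 10.2 and 11.1 CPM in nlsYAP5SA mice and at 9.33, 9.15 and 8.52 CPM in C57BL/6 mice. The groups overlapped, and the log2 fold change of 0.22 ± 0.13 (SE) against control did not pass (adjusted p = 0.330), its 95% interval running from -0.06 to 0.50. With the Y-linked covariate it was 0.06 (adjusted p = 0.933), and within the Y-bearing mice 0.05 (adjusted p = 0.968). Per kilobase of merged exons, Tgfb2 made up 51.7% ± 2.0 of the summed ligand mRNA in control mice (SD, n = 5), Tgfb3 31.2% ± 1.3 and Tgfb1 17.1% ± 1.9. In nlsYAP5SA mice the shares were 48.9% ± 1.3 for Tgfb2, 38.1% ± 1.3 for Tgfb3 and 13.004% ± 1.02 for Tgfb1 (SD, n = 5). These shares depend on the length chosen, since per kilobase of the longest transcript the control levels were 5.90 CPM for Tgfb2, 3.39 CPM for Tgfb1 and 3.14 CPM for Tgfb3, which turns the order of Tgfb1 and Tgfb3. The Tgfb3 share per merged exons did not overlap between these groups (29.0% to 32.2% in control, 36.4% to 39.7% in nlsYAP5SA), but that of C57BL/6 mice, 30.7% to 37.2%, overlapped both. The log2 ratio of Tgfb3 to Tgfb2 within a mouse was 0.35 higher in nlsYAP5SA than in control mice, without overlap. In C57BL/6 mice this ratio was -1.530 to -0.988, which overlapped the -1.1986 to -1.0005 of the nlsYAP5SA mice, and C57BL/6 replicate 2 was above all of these. The summed level of the ligands was 10.1 ± 0.4 CPM per kb in control, 15.4 ± 1.5 in nlsYAP5SA and 10.3 ± 0.6 in C57BL/6 mice (SD).

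The type II receptor Tgfbr2, which binds the ligand, was at 20.6, 23.6, 23.97, 27.2 and 23.6 CPM in control mice. The nlsYAP5SA mice had 33.2, 41.5, 30.1, 40.7 and 42.7 CPM of Tgfbr2, and the C57BL/6 mice 22.5, 22.5 and 26.4 CPM. All nlsYAP5SA mice were above all others, though replicates 1 and 3 lay apart from the remaining 3. The log2 fold change was 0.66 ± 0.10 (SE, adjusted p = 0.00121) against control and 0.64 ± 0.13 (adjusted p = 0.0186) against C57BL/6. With the Y-linked covariate it was 0.58 (adjusted p = 0.035), and within the Y-bearing mice 0.57, which did not pass (adjusted p = 0.0685). Against C57BL/6 the call of Tgfbr2 was lost without C57BL/6 replicate 1 (adjusted p = 0.0838) or 2 (0.0585) and within the Y-bearing mice (0.52, adjusted p = 0.482).

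The type I receptor Tgfbr1, the kinase that phosphorylates the SMADs, was at 26.2, 38.2, 38.6, 34.1 and 38.1 CPM in control and 43.4, 52.5, 37.5, 50.4 and 54.6 CPM in nlsYAP5SA mice. C57BL/6 mice had 35.2, 29.7 and 40.9 CPM. Control and nlsYAP5SA mice overlapped through nlsYAP5SA replicate 3. The log2 fold change of 0.44 ± 0.12 (SE) passed narrowly against control (adjusted p = 0.0324), and that of 0.42 ± 0.14 against C57BL/6 did not (adjusted p = 0.118). The latter passed in 2 of 12 other settings (adjusted p down to 0.022) and in 2 of 8 fits leaving out a mouse (0.0434). The call of Tgfbr1 against control was lost without control replicate 4 (adjusted p = 0.0769) or nlsYAP5SA replicate 2 (0.0853), 4 (0.0638) or 5 (0.0909). It was also lost with the Y-linked covariate (0.377) and within the Y-bearing mice (0.552). The receptors summed to 8.27 ± 0.98 CPM per kb in control and 11.9 ± 1.8 in nlsYAP5SA mice (SD, n = 5 each). The log2 ratio of Tgfbr2 to Tgfbr1 within a mouse differed by 0.20 between these groups, which overlapped.

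**Figure D2:**
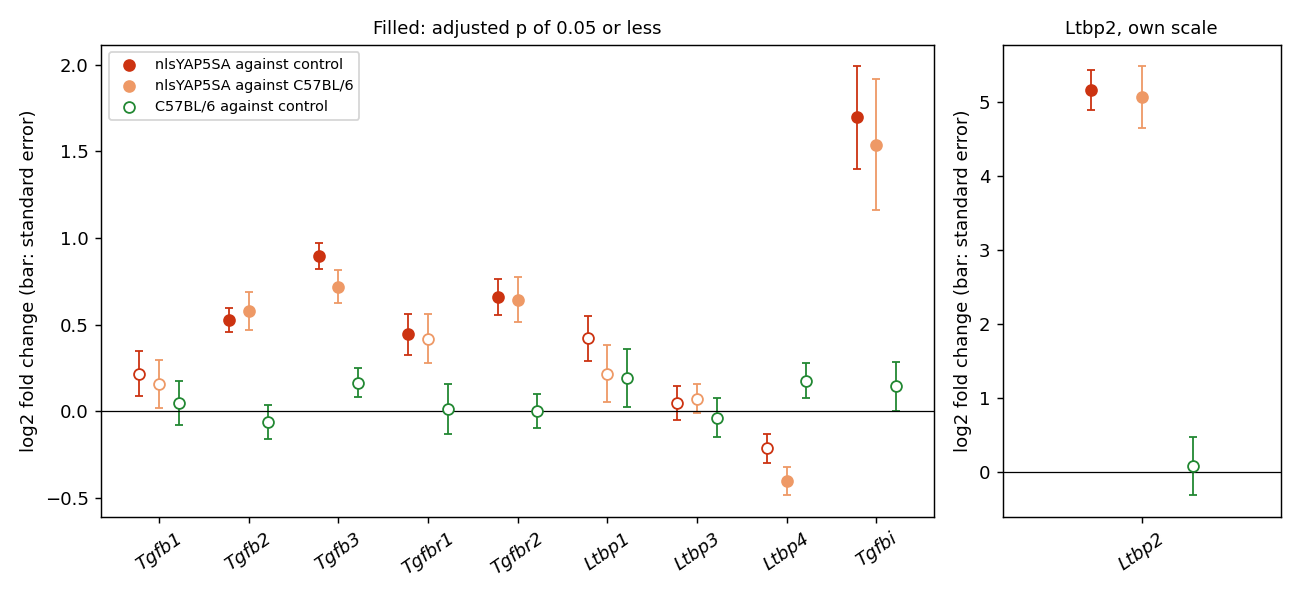
Log2 fold change of each gene in the 3 comparisons, with standard errors as bars, filled where the adjusted p was 0.05 or less, and Ltbp2 on its own axis. In C57BL/6 against control all points are open, between -0.06 and 0.19, while Ltbp2 lies at 5.16 and 5.07 in the comparisons of nlsYAP5SA mice.

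Ltbp2 was low in mice without the active transgene. Its estimated counts were 10 to 11.8 per control mouse and 4 to 14.6 per C57BL/6 mouse, which is 0.450, 0.391, 0.417, 0.420 and 0.567 CPM and 0.179, 0.719 and 0.525 CPM. In nlsYAP5SA mice Ltbp2 was at 18.4, 18.4, 9.01, 13.4 and 21.9 CPM. The nlsYAP5SA mice differed widely among themselves, yet all 5 were far above the other 8 mice. The log2 fold change was 5.16 ± 0.27 (SE, adjusted p = 2.89e-07) against control and 5.07 ± 0.42 (adjusted p = 0.000182) against C57BL/6. Y-bearing mice alone gave 4.63 (adjusted p = 1.67e-05) against control. The antisense gene D030025P21Rik shares 764 exon bases with Ltbp2 and had at most 2.43 estimated counts in a mouse.

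None of the other binding proteins was called against control by edgeR's test over all mice. Ltbp1, which tethers the latent complex to fibronectin and fibrillin, was at 5.97, 6.42, 7.88, 8.94 and 7.32 CPM in control and 9.76, 10.9, 7.80, 8.96 and 11.5 CPM in nlsYAP5SA mice. It was at 8.29, 6.66 and 10.01 CPM in C57BL/6 mice. The groups overlapped, and the log2 fold change of 0.42 ± 0.13 (SE) against control missed the threshold (adjusted p = 0.0581). DESeq2's Wald test gave 0.41 (adjusted p = 0.0382), and Ltbp1 also passed without control replicate 4 (0.0353) or nlsYAP5SA replicate 3 (0.0269), and with the offset for GC content and length from a robust (0.0274) or ordinary loess fit (0.04). With the Y-linked covariate the log2 fold change of Ltbp1 was 0.22 (adjusted p = 0.639), and within the Y-bearing mice 0.19 (adjusted p = 0.795).

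Ltbp3, a carrier of latent TGF-beta known from bone, was between 15.3 and 22.4 CPM in control, 18.2 and 21.8 CPM in nlsYAP5SA and 18.4 and 19.1 CPM in C57BL/6 mice. Its log2 fold change against control was 0.05 ± 0.10 (SE, adjusted p = 0.813), with a 95% interval from -0.16 to 0.26. Without control replicate 2 the direction of Ltbp3 turned, to -0.02.

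Ltbp4, which also takes part in elastic fibre assembly, was the binding protein with the highest level. It was at 40.5, 36.5, 47.4, 48.6 and 44.2 CPM in control, 36.8, 41.8, 33.0, 38.7 and 37.1 CPM in nlsYAP5SA, and 50.2, 45.9 and 51.2 CPM in C57BL/6 mice. Each nlsYAP5SA mouse was below each C57BL/6 mouse but not below each control mouse. Ltbp4 fell by 0.40 on the log2 scale against C57BL/6 (SE 0.08, adjusted p = 0.0193), and the change of -0.21 ± 0.08 against control did not pass (adjusted p = 0.132). Without control replicate 2 the latter was -0.27 (adjusted p = 0.0492). Against C57BL/6 the call was lost without C57BL/6 replicate 1 (adjusted p = 0.09) or nlsYAP5SA replicate 5 (0.0594).

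Per kilobase, Ltbp4 made up 70.2% ± 1.2 of the summed mRNA of the 4 binding proteins in control, 72.3% ± 0.8 in C57BL/6 and 53.5% ± 3.3 in nlsYAP5SA mice (SD). The share of Ltbp2 was 0.577% ± 0.092 in control and 17.9% ± 4.1 in nlsYAP5SA mice. Neither share overlapped between these groups. The summed level of the 4 was 9.58 ± 1.13 CPM per kb in control and 10.9 ± 1.2 in nlsYAP5SA mice (SD, n = 5 each) and overlapped.

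Tgfbi, named for its induction by TGF-beta and secreted into the matrix, was at 3.89, 3.37, 4.25, 5.16 and 3.97 CPM in control and 4.53, 4.51 and 4.64 CPM in C57BL/6 mice. The nlsYAP5SA mice had 9.72, 23.1, 6.28, 10.9 and 17.0 CPM. All 5 were above the other mice, with the widest relative spread of any of the 10 genes in the nlsYAP5SA group (SD 6.66 CPM at a mean of 13.4 CPM). The log2 fold change was 1.70 ± 0.30 (SE, adjusted p = 0.00258) against control and 1.54 ± 0.38 (adjusted p = 0.0413) against C57BL/6. With the Y-linked covariate Tgfbi was no longer called against control, at 1.09 (adjusted p = 0.0801), and within the Y-bearing mice it was, at 1.05 (adjusted p = 0.0447). Against C57BL/6 the Tgfbi call was lost on leaving out 7 of the 8 mice in turn, all but nlsYAP5SA replicate 3, with adjusted p up to 0.137.

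Every nlsYAP5SA mouse was above every control mouse for 5 of the 10 genes, Tgfb2, Tgfb3, Tgfbr2, Ltbp2 and Tgfbi, and 6.5% of all genes tested did the same. For 0 of the 10 was every nlsYAP5SA mouse below every control mouse (3.57% of all genes). Against C57BL/6 mice the same 5 genes were above without overlap (8.71% of all genes) and Ltbp4 below (6.47%). Among the nlsYAP5SA mice, replicate 3 had the lowest level of all 10 genes. Over the 16943 genes kept in the 13 samples, replicate 3 was the lowest for 21.7%. The highest level was in replicate 5 for 5 of the 10 genes, in replicate 2 for 4 and in replicate 4 for 1, where these replicates were the highest for 12.9%, 21.7% and 23.3% of all kept genes.

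**Figure D3:**
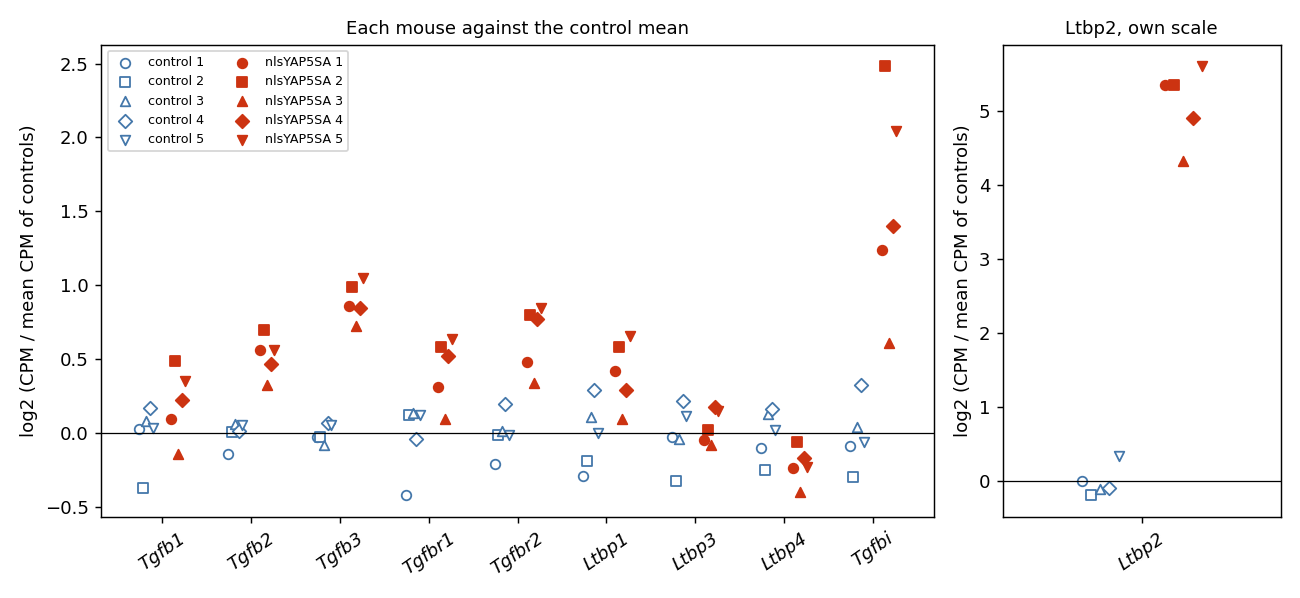
Each control (open) and nlsYAP5SA (filled) mouse against the mean CPM of the control mice, on a log2 scale, with 1 marker shape per replicate number and Ltbp2 on its own axis. The nlsYAP5SA replicate 3 triangle is the lowest filled marker for each of the 10 genes, and replicates 2 and 5 are the highest for 9 of them.

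Compared per kilobase of merged exons, Ltbp4 had the highest level in control mice at 6.72 CPM per kb, followed by Tgfbr1 (5.36), Tgfb2 (5.21), Tgfb3 (3.14), Tgfbr2 (2.91), Ltbp3 (2.12), Tgfb1 (1.73), Tgfbi (1.09), Ltbp1 (0.683) and Ltbp2 (0.0549 CPM per kb). The ranges over control mice did not overlap between Tgfb2 and Tgfb3, Tgfbr2 and Ltbp3, Tgfbi and Ltbp1, or Ltbp1 and Ltbp2, and overlapped between the other neighbours. In nlsYAP5SA mice the order began with Tgfb2 at 7.52 CPM per kb, Tgfbr1 at 7.30 and Tgfb3 at 5.86, and ended with Ltbp2 at 1.98 and Ltbp1 at 0.916. Apart from Ltbp2 and Ltbp1, all neighbours in that order overlapped. Divided by the longest transcript instead, Tgfb3 was at 0.941 times the level of Tgfb1 in control mice, where merged exons gave 1.85 times, Tgfb2 was at 1.77 instead of 3.07 times, and Ltbp3, at 3.36 CPM per kb, lay above Tgfb3 (3.14) and Tgfbr2 (2.94). The places of Tgfb1 and Ltbp3 in the control order thus depend on the length chosen, as does the step between Tgfbr2 and Ltbp3. With the longest transcript, Tgfbi (1.12 to 1.72 CPM per kb) also overlapped Ltbp1 (0.895 to 1.34) in control mice, and Ltbp2 (1.33 to 3.23) overlapped Ltbp1 (1.17 to 1.73) in nlsYAP5SA mice, where Ltbp4 (mean 6.96) moved above Tgfb3 (5.86).

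**Figure D4:**
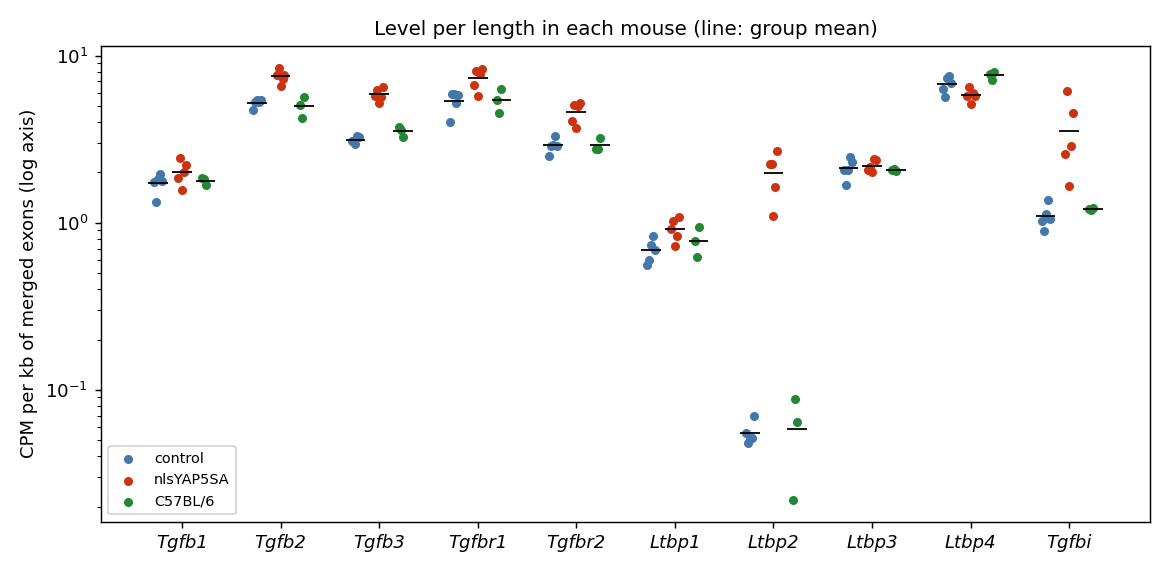
Level per kilobase of merged exons of each gene in each mouse, on a log axis, with group means as lines. Ltbp2 lies near 0.0549 CPM per kb in control and 0.0580 in C57BL/6 mice and at 1.98 in nlsYAP5SA mice, where it reaches the range of Tgfb1.

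The markers of other cell types also differed between the groups. The summed level of 9 microglia markers was 330 to 414 CPM in control, 450 to 604 CPM in nlsYAP5SA and 353 to 410 CPM in C57BL/6 mice, and 6 of the 9 rose against control. The 6 reactive astrocyte markers summed to 242 to 291 CPM in control and 870 to 1136 CPM in nlsYAP5SA mice, and 6 of 6 rose. Gfap (648 to 831 CPM) and Vim (103 to 143 CPM) held most of this sum in nlsYAP5SA mice. The authors found vimentin and focal GFAP in tumour cells of a related mouse model, so this sum is not specific to reactive astrocytes. Markers of astrocytes (4 of 8 higher), border macrophages (2 of 6 higher), mural cells (1 of 7 higher, 3 lower) and endothelial cells (2 of 7 lower) changed in part. So did those of meningeal fibroblasts (2 of 8 higher, 1 lower), choroid plexus (1 of 9 higher), ciliated ependymal cells (1 of 6 higher) and oligodendrocyte precursors (1 of 3 lower). No marker of excitatory neurons, interneurons, oligodendrocytes or erythroid cells passed against control. Against C57BL/6 mice, 6 of 6 reactive astrocyte markers rose, as did 3 of 9 for microglia, 1 of 8 for astrocytes and 2 of 6 for border macrophages. Mural cells (1 of 7 higher, 2 lower), meningeal fibroblasts (1 of 8 higher, 1 lower) and ciliated ependymal cells (1 of 6 higher) had called markers there too, and those of the remaining lists other than oligodendrocytes had none. Of the 6 oligodendrocyte markers, 2 fell against C57BL/6, the comparison in which Ltbp4 fell, and their sum was 2078 to 3483 CPM in control, 1332 to 2870 CPM in nlsYAP5SA and 2981 to 4635 CPM in C57BL/6 mice. No marker in these lists was at 0 in all mice.

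Set against the microglia sum, Tgfbr2 was at 6.06% to 7.14% in control and 6.25% to 7.37% in nlsYAP5SA mice, which overlapped. So did Tgfb2, at 7.36% to 9.19% and 7.18% to 8.71%, and Tgfbr1, at 7.82% to 11.6% and 8.17% to 9.32%. Tgfb3, at 2.69% to 3.17% and 3.28% to 3.90%, Tgfbi, at 1.02% to 1.25% and 1.40% to 4.10%, and Ltbp2, at 0.102% to 0.145% and 2.01% to 3.62%, were higher than in control without overlap. The C57BL/6 mice overlapped the nlsYAP5SA mice for Tgfb3 (2.94% to 3.38%) but not for Tgfbi (1.10% to 1.32%) or Ltbp2 (0.0480% to 0.175%). Against the reactive astrocyte sum, Ltbp2 was higher in nlsYAP5SA mice (1.04% to 1.93%, control 0.146% to 0.195%), Tgfbi overlapped (0.722% to 2.32%, control 1.26% to 1.91%), and Tgfb3 was lower (1.79% to 2.13%, control 3.80% to 4.15%). Tgfb2 (3.92% to 4.94%, control 10.7% to 13.003%), Tgfbr1 (4.15% to 5.29%, control 10.3% to 15.9%) and Tgfbr2 (3.17% to 4.18%, control 8.06% to 10.07%) were also lower, without overlap. nlsYAP5SA replicate 3, the lowest mouse for the 10 genes, also had the lowest sum of its group for microglia (450 CPM) and reactive astrocytes (870 CPM). The part of these cell types in the changes of the 10 genes was not tested.

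The genes whose levels followed Tgfbi, Tgfb1 or Ltbp2 most closely after the group means were subtracted were found over 13 mice and 14856 genes. For Tgfbi these were Ms4a6d (Pearson r 0.91), Msr1 (0.91) and Cd84 (0.89), all expressed in macrophages. For Tgfb1 they were Actn4 (0.94), Ctnna1 (0.90) and Pdlim1 (0.89), and for Ltbp2 Gm49369 (0.88), Havcr2 (0.87) and Xist (0.85). Xist is transcribed from the inactive X chromosome, and the Ltbp2 levels of nlsYAP5SA replicates 1, 2 and 5 (18.4, 18.4 and 21.9 CPM), which lacked Y-linked transcripts, were above those of replicates 3 and 4 (9.01 and 13.4 CPM). These values share libraries and depth and are descriptions.

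The rest of the pathway was counted from lists of its genes by role, in nlsYAP5SA against control and then against C57BL/6 mice. The release genes Itgb6 and Plg did not pass the filter on low counts in either comparison, and the co-receptor Tgfbr3l did not pass it against control. Against C57BL/6, Tgfbr3l was tested and not called (-1.15, adjusted p = 0.158). Of 5 co-receptors and related binders tested against control, 2 rose, Cd109 (log2 fold change 1.38) and Vasn (0.93), both binders of TGF-beta, and the endothelial co-receptor Eng fell (-0.29). No SMAD transducer of 5 passed, with log2 fold changes from 0.04 for Zfyve9 to 0.18 for Smad3. Of 10 inhibitors, Tgif1 (1.02) and Ski (0.18), both nuclear corepressors of SMADs, rose, and Smad7 (-0.10, adjusted p = 0.489) did not pass. Against C57BL/6 mice, Cd109 (1.67), Vasn (0.74), Tgif1 (0.95) and Ski (0.28) rose too, Eng did not pass (-0.32, adjusted p = 0.0728), and 0 of the 5 SMAD transducers passed.

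Of 13 genes that process or release the latent complex, 5 rose and 0 fell. Thbs1, a matrix glycoprotein that can activate latent TGF-beta, went from 8.18 to 12.7 CPM in control to 37.6 to 96.7 CPM in nlsYAP5SA mice (log2 fold change 2.75 ± 0.24 SE, adjusted p = 1.59e-05). Nrros, which holds latent TGF-beta on microglia, rose by 0.42, the integrin subunit Itgb5 by 0.39, and the metalloproteases Mmp2 and Mmp14 by 0.39 and 0.28. The integrin subunits Itgav (0.35, adjusted p = 0.193) and Itgb8 (0.22, adjusted p = 0.464) did not pass. Against C57BL/6 mice 2 of the 13 rose, Thbs1 (2.71, adjusted p = 0.000919) and Itgb5 (0.48, adjusted p = 0.0183), and 0 fell. Nrros (0.13, adjusted p = 0.545), Mmp2 (0.34, adjusted p = 0.120) and Mmp14 (0.21, adjusted p = 0.318) did not pass there. Nrros was at 3.42 to 4.96 CPM in control, 5.33 to 6.55 CPM in nlsYAP5SA and 5.21 to 5.75 CPM in C57BL/6 mice, so each C57BL/6 mouse was above each control mouse, and the C57BL/6 and nlsYAP5SA mice overlapped.

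Of 11 matrix partners of the binding proteins, 4 rose and 1 fell. Those that rose were Mfap5 (0.98), Fbn1 (0.96), Eln (0.74) and Fbln5 (0.65), components of microfibrils and elastic fibres, and the one that fell was Adamtsl2 (-0.51), which binds LTBP1. Of 12 genes known to respond to TGF-beta, 7 rose and 0 fell, among them Lox (2.89), an enzyme that crosslinks collagen and elastin, and Ctgf (1.43). Ctgf is also a known target of YAP1. Against C57BL/6 mice 2 of the 11 matrix partners rose, Fbn1 (0.99) and Efemp2 (0.42), and Adamtsl2 fell (-0.65), while Mfap5 (0.37, adjusted p = 0.529), Eln (0.50, adjusted p = 0.160) and Fbln5 (0.54, adjusted p = 0.0583) did not pass. Of the 12 response genes, 5 rose against C57BL/6 mice and 0 fell, with Lox at 2.82 and Ctgf at 1.02. Against control, the median log2 fold change was 0.98 over the response genes, 0.41 over the matrix partners, 0.33 over the co-receptors, 0.22 over the release genes, 0.11 over the SMAD transducers and -0.01 over the inhibitors (5 of 10 above 0), beside -0.01 over all genes tested.

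**Figure D5:**
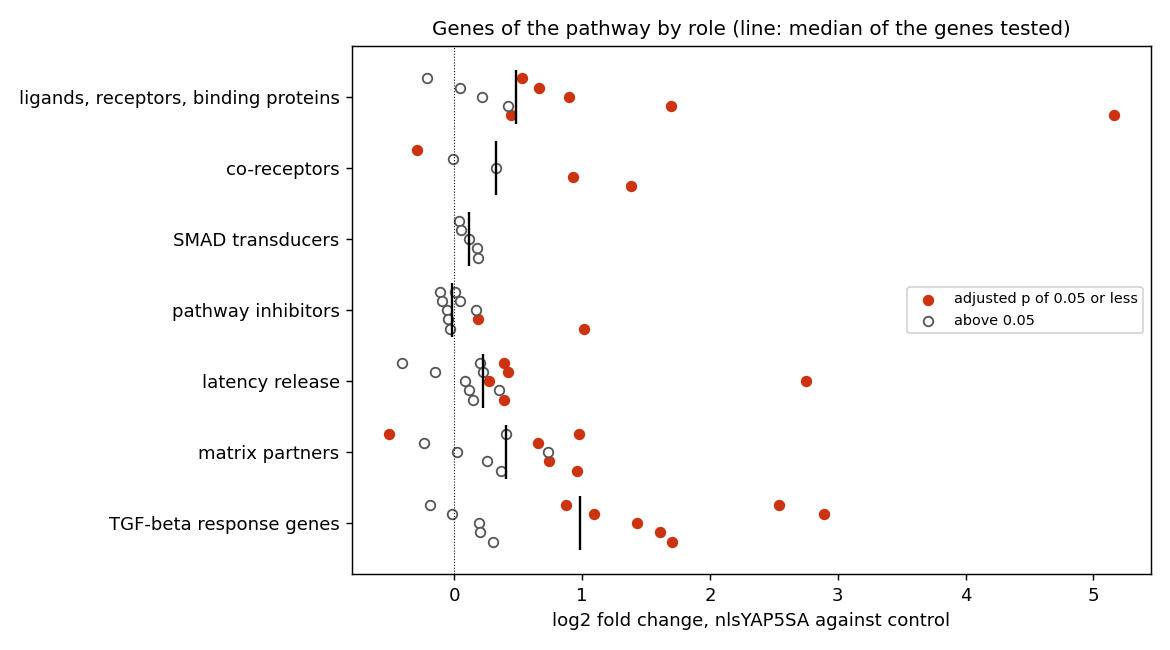
Log2 fold change of each tested gene in nlsYAP5SA against control mice by role, filled where the adjusted p was 0.05 or less, with the median of each list as a line. Filled points are absent among the SMAD transducers and most numerous among the response genes, 7 of 12.

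Between C57BL/6 and control mice, which both lack active transgene, the 10 genes differed by log2 fold changes from -0.06 for Tgfb2 to 0.19 for Ltbp1, with a median of 0.06. By edgeR's test 0 of the 10 had an unadjusted p under 0.05. By DESeq2 0 were called, beside 0.203% of the 29068 genes it tested without the filter. None of the 10 was without overlap between C57BL/6 and control mice, where 1.95% of all genes lay higher and 1.39% lower in every C57BL/6 mouse. The interval was widest for Ltbp2, from -0.80 to 0.95, and for Tgfb3 it ran from -0.02 to 0.35. In the other lists of the pathway 0 genes were called. Each pair of the 3 comparisons shares a group of mice.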

How the data were processed

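After trimming with CutAdapt 1.5 and mapping to GRCm38 by STAR (2.2.2a in the submitters' notes, another version in the methods), the authors estimated counts per gene with RSEM 1.3.0. They deposited these estimated counts without normalization. A strand setting is not given in the sources used here, so reads of antisense overlaps cannot be told apart. Estimated counts were rounded. Rows without a symbol, 360 of 48795, held 0.0523% of counts and were kept under their gene identifiers. Replicates differed by more than sampling noise (chi-square per degree of freedom at least 6.39).

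Counts were scaled with TMM and filtered with filterByExpr (minimum count 10, minimum total 15). Groups were compared pairwise with edgeR 4.0.16 (quasi-likelihood test, two-sided, Benjamini-Hochberg) in R 4.3.3. Intervals of fold changes use the t quantile for the degrees of freedom of each gene's test. DESeq2 1.42.0 was an alternative. P-values measure the spread between mice. Lengths come from GENCODE M21, a later release than that counted on. Ratios within a mouse used a pseudocount of 0.5 CPM. The test was tried on simulated data. The members, lists and the rule for named genes (the called genes with the largest change in each list, at a mean of at least 50 counts, or all where 5 or fewer were called) were chosen with earlier results of these data known. Some genes that this rule or the annotation brings up are not reported here.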

Additional observations from a re-analysis of the deposited data

Results flagged for a closer look

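In 32 tests for an outlying mouse, group by group, over the levels and ratios of the 10 genes, 1 value stood apart, where chance gives about 1 in 20. Tgfb2 was at 27.4 CPM in control replicate 1, below the 30.3 to 31.5 CPM of the other control mice, and its gap to the nearest was 0.716 of the group's range (critical value 0.71 for 5 samples). The Tgfb2 call against control was kept without this mouse.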

How the results depend on the processing

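The 10 genes rest on 5, 5 and 3 mice of unequal Y-linked content, and Ltbp2 on about 10 counts per mouse without active transgene, so small differences in it cannot be seen. Of 426 recomputed values that kept all mice or only the Y-bearing mice, 377 kept their direction and their side of the threshold or stayed near the first value. Of the 10 genes, 4 to 7 were called in nlsYAP5SA against control under these settings, beside 1.97% to 21.9% of all genes tested. On leaving out each mouse 5 to 7 were called, beside 7.34% to 11.5%. In C57BL/6 against control 0 were called throughout, beside 0.0907% to 0.26%.

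The GC and length offset by ordinary loess and the fit within Y-bearing mice were chosen after seeing the data. In nlsYAP5SA against control 1761 genes were called, and 542 with the Y-linked covariate, 334 within Y-bearing mice and 3555 with the ordinary loess offset. In C57BL/6 against control 28 genes were called, and 16 with at least 10 counts in every sample, 59 with DESeq2, 44 with all 13 samples in one fit and 15 with the replicate block. In nlsYAP5SA against C57BL/6 1061 genes and 6 of the 10 were called, and 1670 genes with the robust and 2300 with the ordinary loess offset. There the block and the Y-bearing mice each left 47 genes and 1 of the 10, Ltbp2, and leaving out each mouse left 401 to 1757 genes and 2 to 7 of the 10. The lowest of these were without C57BL/6 replicate 1 (401 genes, with 2 of the 10, Ltbp2 and Tgfb3), nlsYAP5SA replicate 5 (509) and C57BL/6 replicate 2 (581), then nlsYAP5SA replicates 1 (636) and 2 (645), and the highest without C57BL/6 replicate 3 (1757). Ltbp2 was not in the C57BL/6 comparisons with at least 10 counts in every sample. The cause was not tested.

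Same-numbered control and nlsYAP5SA mice had correlations of 0.31, -0.16, -0.31, -0.09 and 0.11, of mixed sign. So few correlations cannot settle whether some of these mice shared a litter. The block gave 1239 genes in nlsYAP5SA against control, with the same 6 of the 10 called.

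The changes between C57BL/6 and control mice that turned sign did not pass the test in any of these settings. Tgfbr1 was -0.0082 and Tgfbr2 -0.021 by library size alone, Tgfbr2 -0.0072 without filter and -0.0014 by DESeq2, Ltbp3 0.091 with the block, Tgfb2 0.037 and Ltbp2 -0.28 with the Y-linked covariate, and Ltbp2 -0.19 with the Ttr covariate. Leaving out each mouse gave -0.13 to 0.12 for Tgfbr1, -0.097 to 0.049 for Tgfbr2, -0.041 to 0.087 for Tgfb1, -0.116 to 0.0167 for Ltbp3, -0.183 to 0.0415 for Tgfb2 and -0.32 to 0.46 for Ltbp2. In nlsYAP5SA against C57BL/6, Ltbp3 was -0.012 with the block and Ltbp1 -0.14 within Y-bearing mice, and against control Ltbp3 ran from -0.0244 to 0.11 on leaving out each mouse. The log2 ratio of Tgfbr2 to Tgfbr1 ran from 0.17 to 0.26 in the same way. A pseudocount of 0.1 CPM moved the differences in the log2 ratios of Ltbp2 to Ltbp1, Ltbp3 and Ltbp4 from 3.68, 4.03 and 4.29 to 4.42, 4.78 and 5.05. Per longest transcript, Tgfb2 and Tgfb3 were at 1.77 and 0.941 times Tgfb1 in control mice.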
